A study of Mus musculus with 3 samples.

Results

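Genes for the enzymes that methylate, demethylate, acetylate and deacetylate histones, with the Polycomb subunits that act beside them, were examined in regulatory T cells of the mouse by RNA-seq of polyadenylated RNA. The set was a fixed list of 48 genes, and all 48 were found by symbol among the 22457 genes of the count files. Its genes share a function in histone modification. The primary regulatory T cells came from adult mice, 4 months of age, and are traced in the labels to haematopoietic cells of the bone marrow. Neither genotype, strain nor treatment is stated there for the samples. The labels give 1 group of 3 libraries, technical replicates 1, 2 and 3 of biological replicate 1, called libraries 1, 2 and 3 here. No comparison between conditions was therefore possible, and the spread between libraries says nothing of the spread between animals.

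Histone tails carry chemical groups that mark genes for use or for silence. Polycomb repressive complex 2 (PRC2) methylates lysine 27 of histone H3 and Polycomb repressive complex 1 (PRC1) ubiquitylates histone H2A, both at silent genes. Methylation of lysine 4 marks promoters and enhancers, methylation of lysine 36 marks transcribed gene bodies, and acetylation opens chromatin. In regulatory T cells Foxp3 acts together with such enzymes. Ezh2 is needed by activated regulatory T cells of mice to keep their identity, and acetyltransferases and deacetylases act on the Foxp3 protein as well as on histones.

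Summed over genes, libraries 1, 2 and 3 held 3206781, 3228215 and 2872350 counts. Levels are counts per 1000000 of that sum (CPM), divided by the length of the coding sequence in kilobases wherever genes are compared, and each is a mean ± SD over the 3 libraries (n = 3). Foxp3 stood at 142, 157 and 150.4 CPM in libraries 1, 2 and 3, Cd4 at 618, 533 and 501 CPM and Cd3e at 388, 388 and 411 CPM. All 7 regulatory T cell markers examined reached 1 CPM in every library. Markers of other cells were also present and were not level. The 8 B cell markers, each at 1 CPM or more in all libraries, summed to 259, 328 and 431 CPM in libraries 1, 2 and 3. The 5 genes listed as dendritic cell markers summed to 627, 735 and 936 CPM. Most of that sum came from Cd74 (434, 474 and 537 CPM), H2-Aa (97.6, 134 and 209 CPM) and H2-Ab1 (92.0, 124 and 181 CPM). Flt3 stood at 2.49, 2.48 and 7.66 CPM and Itgax at 0.624, 0.929 and 1.04 CPM, so the sum is no measure of dendritic cells alone. The 7 neutrophil markers summed to 1.56, 78.4 and 9.40 CPM and the 6 erythroid markers to 8.11, 172 and 148 CPM. None of the markers examined was at 0 in all libraries. Fewer cells of a type and less RNA per cell cannot be told apart in such bulk samples, and what these cells add to the levels below was not tested.

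All 48 genes reached 1 CPM in every library, as did 48.4% of all genes in the files, unexpressed genes included. The list was chosen with earlier results of these data known, so its full detection is a description and no test. The median level was 39.2 CPM per coding kilobase, against 35.2 for the 10231 genes that had a mean count of at least 10 and a known coding length. Of the 48, 25 lay above that second value. Levels ran from 2.71 ± 0.158 CPM per coding kilobase for Setd1b to 173 ± 13.2 for Rnf2, a 63.6-fold range of means. The ends of the order depended on the length used. Divided by exon length, Kmt2e (67.7) lay above Rnf2 (42.1) and Hdac9 (0.626) below Setd1b (1.34), all in CPM per exon kilobase. Enzymes that write a mark and enzymes that remove it were both found in the upper and the lower part of that range.

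**Figure D1:**
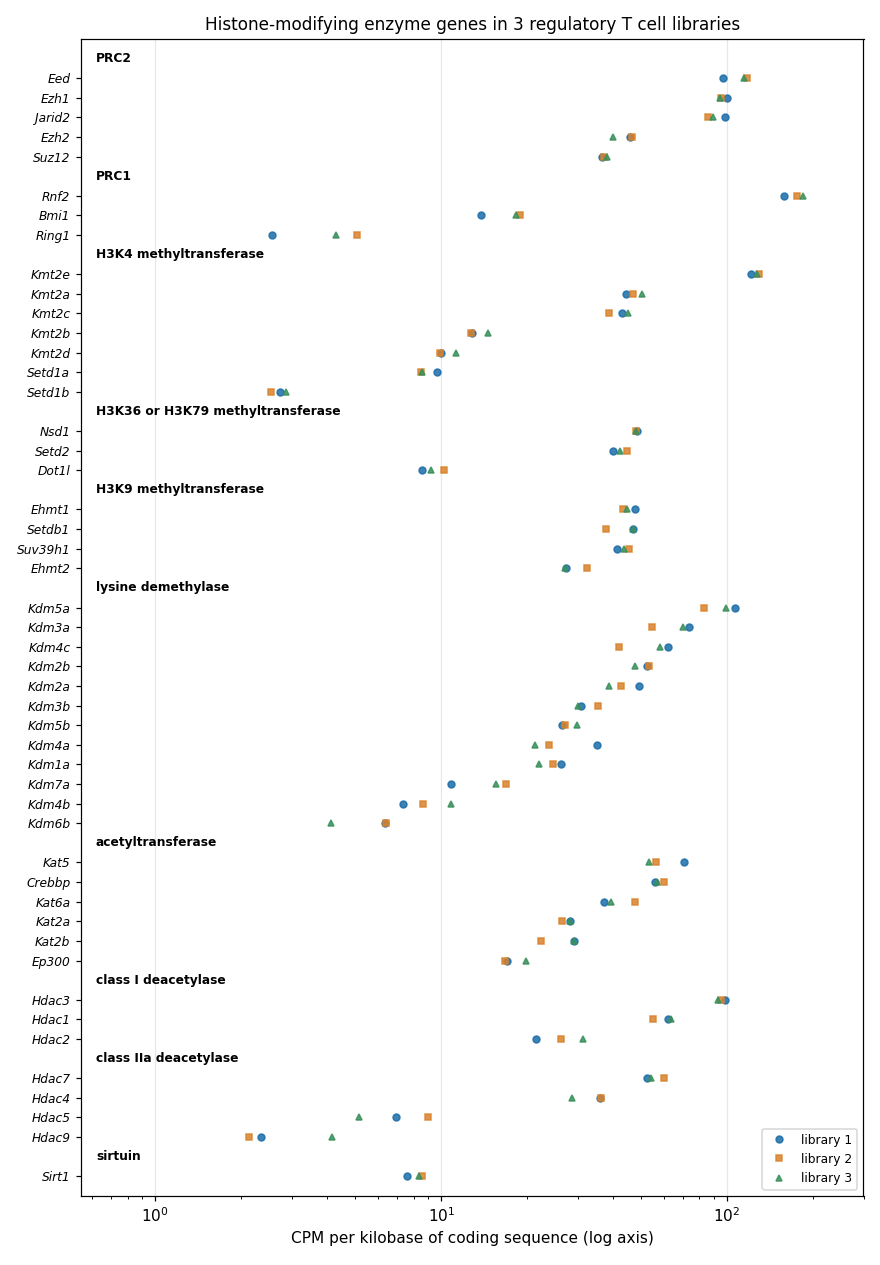
CPM per kilobase of coding sequence (log axis) of the 48 genes in each of the 3 libraries, grouped by activity and ordered by mean level within each group. The 3 points of most genes lie close together, while the genes spread from 2.71 (Setd1b) to 172.6 (Rnf2) CPM per coding kilobase.

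The 5 PRC2 genes had a median of 90.8 CPM per coding kilobase, and Ezh2 lay below Ezh1. Ezh2, the methyltransferase that prevails in dividing cells, stood at 45.8, 46.5 and 40.0 (mean 44.1 ± 3.59) CPM per coding kilobase in libraries 1, 2 and 3, from 329, 336 and 257 counts. Its relative Ezh1, which prevails in resting cells, stood at 99.6, 95.4 and 94.7 (mean 96.6 ± 2.68), from 719, 693 and 612 counts. The groups of 3 values did not overlap, and the log2 ratio of Ezh2 to Ezh1 was -1.13 ± 0.10, or -0.99 with levels divided by exon length. Eed, the subunit that reads the finished mark, stood at 96.9, 117 and 115 (mean 109.6 ± 11.1) CPM per coding kilobase, lowest in library 1. Suz12, the scaffold of the complex, had the lowest mean of the 5, at 36.5, 37.1 and 38.1 (mean 37.2 ± 0.800), nearly equal in the 3 libraries. Per exon kilobase Ezh2 (14.8 CPM) lay below Suz12 (16.7 CPM). Jarid2, a DNA-binding cofactor of PRC2, stood at 98.0, 85.4 and 89.1 (mean 90.8 ± 6.45), highest in library 1.

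Ezh2 (ENSMUSG00000029687.16, chromosome 6, 47530139 to 47595341, minus strand) and Ezh1 (ENSMUSG00000006920.14, chromosome 11, 101191115 to 101226463, minus strand, GRCm38) encode closely related proteins. The longest stretch over which they encode the same amino acids covers 45 codons, shown here 5′ to 3′ on the coding strand to make plain how far reads of the 2 genes differ. Capitals mark the bases that differ, 33 of 135, and the GC content of the stretch is 44.4% in Ezh2 and 54.8% in Ezh1.
Ezh2: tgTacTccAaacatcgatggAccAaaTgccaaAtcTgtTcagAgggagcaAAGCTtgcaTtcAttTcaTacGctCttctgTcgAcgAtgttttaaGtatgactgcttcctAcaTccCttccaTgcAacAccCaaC
Ezh1: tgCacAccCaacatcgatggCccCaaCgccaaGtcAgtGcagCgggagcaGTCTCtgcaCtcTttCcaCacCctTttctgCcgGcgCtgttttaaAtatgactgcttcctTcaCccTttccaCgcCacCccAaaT

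The 3 PRC1 genes ranged from 3.98 to 172.6 CPM per coding kilobase, the 5 PRC2 genes from 37.2 to 109.6. Rnf2 (RING1B), the main ubiquitin ligase of PRC1, had the highest level of the 48 per coding kilobase, though not per exon kilobase, at 158, 175 and 184 CPM per coding kilobase, from 511, 571 and 533 counts. Ring1 (RING1A), its paralog, stood at 2.56, 5.09 and 4.29 (mean 3.98 ± 1.29), from 10, 20 and 15 counts. The log2 ratio of Rnf2 to Ring1 was 5.95, 5.11 and 5.42 in libraries 1, 2 and 3, the widest gap of the 15 pairs of related enzymes examined. The 95% exact binomial interval of Ring1 was 1.495 to 5.73 CPM in library 1, 3.78 to 9.57 in library 2 and 2.92 to 8.61 in library 3, and it covers counting error only. Bmi1, the PRC1 subunit that pairs with a RING1 protein and was first found as an oncogene, stood at 13.8, 18.8 and 18.3 (mean 17.0 ± 2.75) CPM per coding kilobase, lowest in library 1.

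Rnf2 (ENSMUSG00000026484.13, chromosome 1, 151458004 to 151500955, minus strand) and Ring1 (ENSMUSG00000024325.8, chromosome 17, 34020792 to 34024680, minus strand, GRCm38) encode the same amino acids over at most 40 codons in a row. The coding bases of that stretch are shown because the proteins match there while the base composition does not. Capitals mark the 31 of 120 bases that differ, and the GC content is 45.0% in Rnf2 and 62.5% in Ring1.
Rnf2: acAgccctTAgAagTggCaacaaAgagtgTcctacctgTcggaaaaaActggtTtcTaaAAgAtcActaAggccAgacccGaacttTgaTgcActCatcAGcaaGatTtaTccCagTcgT
Ring1: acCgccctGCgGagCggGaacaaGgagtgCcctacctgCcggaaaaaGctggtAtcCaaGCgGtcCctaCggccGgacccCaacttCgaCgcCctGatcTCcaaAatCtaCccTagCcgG

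Bmi1 (ENSMUSG00000026739.13, chromosome 2, 18677018 to 18686629, plus strand) has a processed copy on the X chromosome, Gm5946, that matches its whole coding sequence at 96.4% identity. Its RING finger stretch is shown beside the copy, since the 2 are nearly identical there. Capitals mark the differing bases, 3 of 117. The level of Bmi1 is therefore uncertain.
Bmi1: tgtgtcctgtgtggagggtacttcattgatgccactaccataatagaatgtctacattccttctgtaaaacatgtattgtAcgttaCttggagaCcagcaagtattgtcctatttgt
Gm5946: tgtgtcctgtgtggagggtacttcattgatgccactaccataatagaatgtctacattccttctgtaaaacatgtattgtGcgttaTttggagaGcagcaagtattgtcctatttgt

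Other subunits of the Polycomb complexes also spread widely. The histone chaperones Rbbp4 and Rbbp7, which PRC2 shares with other complexes, were the highest at 428 ± 17.1 and 218 ± 12.2 CPM per coding kilobase. Per exon kilobase Rbbp7 lay above Rbbp4, with exon lengths of 2909 and 8744 bases. Mtf2, a Polycomb-like cofactor, stood at 61.7 ± 2.46, whereas its relative Phf19 stood at 1.49 ± 0.368 with 6, 10 and 8 counts, and Epop had 1 count in library 2 and none in libraries 1 and 3. A count of 0 allows up to 0.936 CPM in library 1 and 1.04 CPM in library 3. Of the PRC1 subunits that read lysine 27 methylation, Cbx7 led at 38.7 ± 9.35 CPM per coding kilobase, ahead of Cbx8 (15.4 ± 4.05), Cbx6 (10.9 ± 2.36) and Cbx2 (3.18 ± 0.512). That lead depended on the length used. Per exon kilobase Cbx7 and Cbx8 were nearly equal, at 29.1 and 16.7 CPM over 6487 and 3675 exon bases. Among the PCGF subunits, which sort PRC1 into variants, Pcgf5 (71.3 ± 7.63) and Pcgf1 (47.2 ± 2.45) lay above Bmi1, and Pcgf6 (9.65 ± 1.08), Pcgf3 (8.88 ± 4.45) and Pcgf2 (7.17 ± 2.03) below it. Per exon kilobase Pcgf1 lay above Pcgf5, with exon lengths of 1649 and 12629 bases, and Pcgf5 was close to Bmi1. Rybp, a subunit of variant PRC1, had 5, 2 and 1 counts, and its paralog Yaf2 stood at 47.1 ± 5.85 CPM per coding kilobase.

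**Figure D2:**
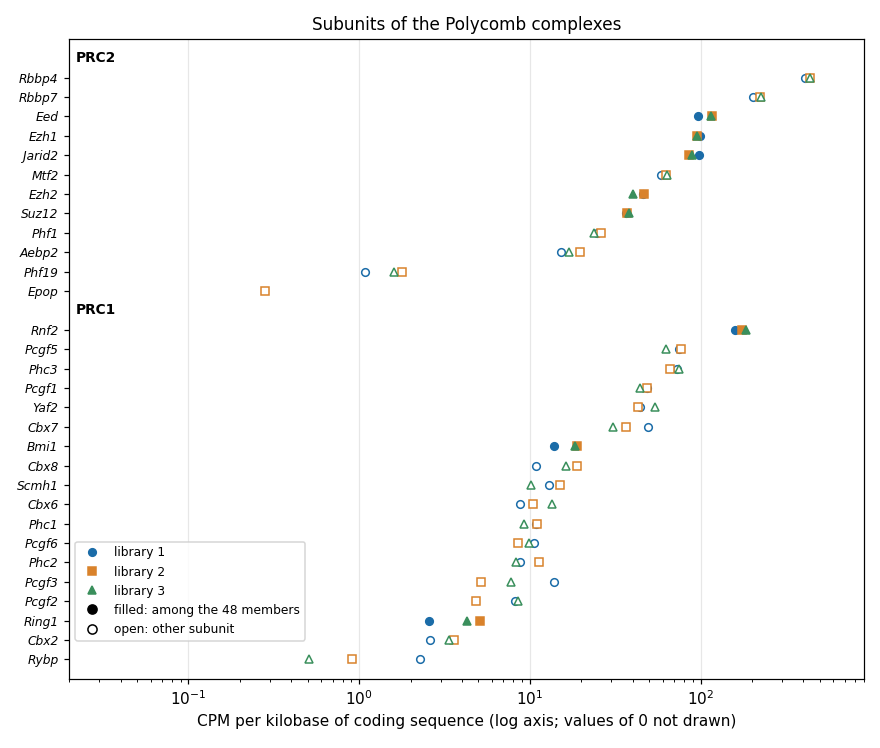
CPM per kilobase of coding sequence (log axis) of PRC2 and PRC1 subunits in the 3 libraries, with filled symbols for the 48 genes of the list and open symbols for other subunits. Rnf2 leads PRC1 at 172.6 CPM per coding kilobase and Ring1 lies near its lower end at 3.98, while the PRC2 core genes lie between 37.2 and 109.6.

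The 7 lysine 4 methyltransferases had a median of 13.4 CPM per coding kilobase and spread from 2.71 to 126. Kmt2e, a relative of the family whose own enzyme activity is in doubt, led at 122, 129 and 128 (mean 126 ± 3.94) CPM per coding kilobase in libraries 1, 2 and 3. Kmt2a (MLL1), which maintains Hox gene expression in blood cells, followed at 44.2, 47.0 and 50.5 (mean 47.3 ± 3.14). Setd1b, which methylates lysine 4 at promoters, stood at 2.72, 2.55 and 2.86, from 52, 49 and 49 counts. Its mean was the lowest of the 48, but Hdac9 lay below it in libraries 1 and 2, and Ring1 in library 1. Of the enhancer enzymes Kmt2d stood at 10.4 ± 0.776 and Kmt2c at 42.2 ± 3.19 CPM per coding kilobase, and the log2 ratio of Kmt2d to Kmt2c was -2.02 ± 0.07. Kmt2a exceeded Kmt2b (13.4 ± 1.06) by 1.82 ± 0.06 on the log2 scale, and Setd1a (8.92 ± 0.669) exceeded Setd1b by 1.72 ± 0.12. In the GENCODE M21 models a further gene, Gm49388, overlaps 68.4% of the Setd1a coding sequence on the same strand, so the Setd1a level is uncertain.

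Enzymes for lysines 36, 79 and 9 were closer together, apart from Dot1l. Nsd1, which places the dimethyl mark on lysine 36, stood at 48.6, 47.8 and 48.2 (mean 48.2 ± 0.373) CPM per coding kilobase, and Setd2, which places the trimethyl mark, at 39.9, 44.5 and 42.3 (mean 42.2 ± 2.33). Dot1l, the lysine 79 methyltransferase, was lower than either at 8.57, 10.3 and 9.19 (mean 9.34 ± 0.853). The values of Dot1l did not overlap with those of the other two in any library. Of the lysine 9 enzymes Ehmt1 (GLP) stood at 47.6, 43.1 and 44.8 (mean 45.2 ± 2.30) and Setdb1, which silences retroelements, at 46.8, 37.7 and 46.9 (mean 43.8 ± 5.32). Ehmt2 (G9a), the partner of Ehmt1, stood at 27.3, 32.3 and 27.2 (mean 28.9 ± 2.91), below the other lysine 9 enzymes in every library, although per exon kilobase Suv39h1 (10.2 CPM) lay below Ehmt2 (20.0 CPM). Suv39h1, which builds constitutive heterochromatin, stood at 43.4 ± 2.00 CPM per coding kilobase, but 58.3% of its coding bases lie in exons of the antisense gene Gm14820 and no strand setting is stated for the counts.

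Among the 12 lysine demethylases Kdm5a, which removes lysine 4 methylation, was the highest at 107, 82.7 and 99.2 (mean 96.2 ± 12.2) CPM per coding kilobase, from 1733, 1354 and 1444 counts. Kdm3a, a lysine 9 demethylase, followed at 73.6, 54.4 and 70.1 (mean 66.0 ± 10.2), from 937, 697 and 799 counts. Kdm6b (JMJD3), which removes lysine 27 methylation and thus opposes PRC2, was the lowest at 6.33, 6.42 and 4.10 (mean 5.62 ± 1.31), from 100, 102 and 58 counts. Library 2 was the lowest for Kdm5a and Kdm3a, and library 3 the lowest for Kdm6b. The other lysine 27 demethylase, Kdm6a (UTX), stood at 36.5 ± 2.25 CPM per coding kilobase and its Y-linked relative Uty at 75.7 ± 9.34, both above Kdm6b. The lysine 9 and 36 demethylases Kdm4c, Kdm4a and Kdm4b stood at 54.1 ± 10.9, 26.7 ± 7.30 and 8.94 ± 1.73. Kdm2b, which recruits a variant PRC1 to CpG islands, stood at 51.1 ± 3.10 and its paralog Kdm2a at 43.6 ± 5.29. Kdm3b, a lysine 9 demethylase, stood at 32.1 ± 2.85 and Kdm5b, a lysine 4 demethylase, at 27.8 ± 1.85. Kdm1a (LSD1), the flavin-dependent enzyme, stood at 24.3 ± 2.21 and Kdm7a, which removes dimethyl marks from lysines 9 and 27, at 14.4 ± 3.15.

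Kat5 (TIP60), an acetyltransferase that also acts on Foxp3, had the highest mean of the 6 acetyltransferases per coding kilobase and stood at 70.7, 56.4 and 53.2 (mean 60.1 ± 9.35) CPM per coding kilobase. Crebbp (CBP) was lower than Kat5 in library 1 and higher in libraries 2 and 3, and higher per exon kilobase (31.1 against 26.3 CPM). It stood at 55.7, 60.2 and 56.8 (mean 57.6 ± 2.33), from 1309, 1423 and 1194 counts, well above its paralog Ep300 (p300) at 16.9, 16.7 and 19.8 (mean 17.8 ± 1.74), from 393, 390 and 412 counts. Values of the 2 coactivators did not overlap, and the log2 ratio of Crebbp to Ep300 was 1.70 ± 0.17. Kat6a (MOZ), a MYST family enzyme needed by blood stem cells, stood at 41.3 ± 5.66. Per exon kilobase Kat6a (27.0 CPM) also lay above Kat5. The SAGA and ATAC acetyltransferases Kat2a (GCN5) and Kat2b (PCAF) stood at 27.6 ± 0.990 and 26.8 ± 3.88. With coding length they differed by less than the spread between libraries, with a log2 ratio of -0.04, 0.25 and -0.05 in libraries 1, 2 and 3. With exon length the mean log2 ratio was 0.57, above the SD of 0.17 between libraries. Without library 2 the ratio with coding length was -0.04. Kat2b also has a processed copy with 95.1% identity to its whole coding sequence, which makes its count uncertain.

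Among class I deacetylases Hdac3, the enzyme of the nuclear receptor corepressor complexes, led at 98.1, 95.1 and 93.0 (mean 95.4 ± 2.57) CPM per coding kilobase. Hdac1, found in the Sin3, NuRD and CoREST complexes, stood at 61.9, 54.8 and 63.8 (mean 60.2 ± 4.72). Hdac2, its close paralog, was lowest at 21.5, 26.2 and 31.4 (mean 26.4 ± 4.94), and the log2 ratio of Hdac1 to Hdac2 was 1.20 ± 0.28. The 2 did not overlap in any library, but Hdac1 is uncertain. It has a processed copy, Gm10093, with 99.4% identity over 99.9% of its coding sequence, to which the files give 5, 5 and 4 counts in libraries 1, 2 and 3.

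Class IIa deacetylases, which shuttle between nucleus and cytoplasm and bind MEF2 factors, spread widely. Hdac7, the member prominent in thymocytes, stood at 52.5, 60.2 and 54.3 (mean 55.7 ± 4.06) CPM per coding kilobase, and Hdac4 at 35.9, 36.2 and 28.6 (mean 33.6 ± 4.32). Hdac9, reported to restrain regulatory T cell function in mice, was the lowest at 2.34, 2.13 and 4.13 (mean 2.87 ± 1.10), from 24, 22 and 38 counts. Library 3 held the highest Hdac9 value and the lowest Hdac4 value. Hdac5 stood at 7.05 ± 1.93 CPM per coding kilobase. Sirt1, an NAD-dependent deacetylase that also acts on Foxp3, was low at 7.62, 8.55 and 8.35 (mean 8.17 ± 0.489), from 54, 61 and 53 counts, with little difference between libraries.

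Ratios between related enzymes were taken within each library, so that library size cancels. Of 15 pairs, 14 kept 1 sign in all 3 libraries, Kat2a to Kat2b being the exception, and 11 differed by at least 1 on the log2 scale. All 15 had the same sign when levels were divided by exon length in place of coding length. Some ratios moved by more than the spread between libraries under that change. Hdac7 to Hdac4 was 0.74 ± 0.19 with coding length and 1.79 with exon length, and Ehmt2 to Ehmt1 was -0.65 ± 0.20 and -0.12. Whether reads were counted over exons or coding bases is not stated in any source used here. Kdm5a exceeded Kdm5b by 1.78 ± 0.21 and Kdm3a exceeded Kdm3b by 1.03 ± 0.36 on the log2 scale. The ratio of Kdm4a to Kdm4b varied between libraries (2.25, 1.46 and 0.98), as did that of Hdac5 to Hdac9 (1.57, 2.08 and 0.32). Kdm2a lay a little below Kdm2b with coding length (-0.23 ± 0.12) and further below with exon length (-0.82). These ratios carry no p-value: with 3 libraries the smallest 2-sided p of an exact sign test is 0.25.

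**Figure D3:**
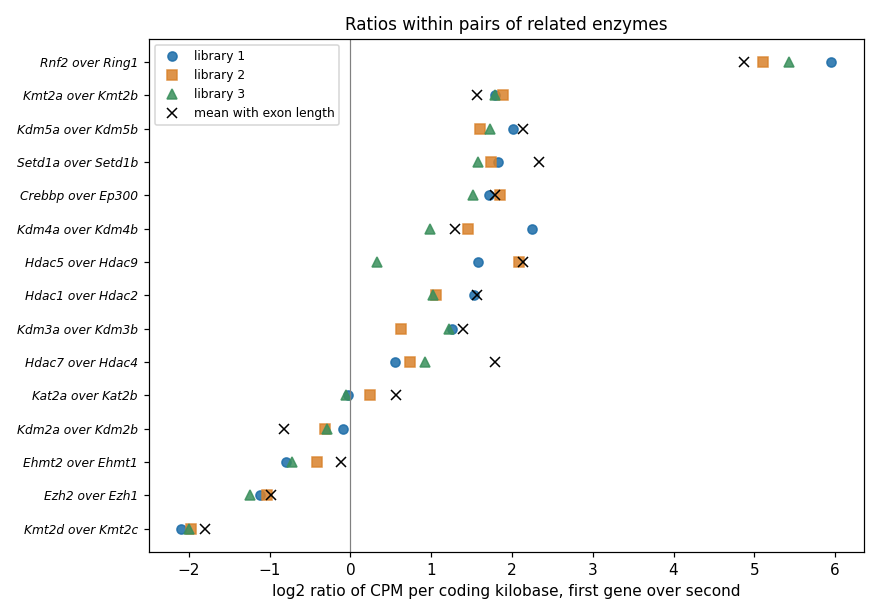
Log2 ratio of CPM per coding kilobase, first gene over second, for 15 pairs of related enzymes in each of the 3 libraries, with crosses for the mean when exon length is used instead. Rnf2 over Ring1 lies far from 0 at 5.49, Ezh2 over Ezh1 (-1.13) and Kmt2d over Kmt2c (-2.02) lie below 0, and Kat2a over Kat2b straddles 0.

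Genes of the list with a GC-rich coding sequence tended to have lower levels. Coding GC ran from 42.3% in Hdac2 to 62.6% in Ring1. Across the 48 genes the Spearman rho of level per coding kilobase with coding GC was -0.436, and Pearson's r with the log2 level was -0.531. With exon length in place of coding length rho was -0.399. The same rho was -0.366 over 94 other histone-modifier genes and -0.136 over the 10231 genes with a mean count of at least 10. These are correlations across genes that share the same libraries, so genes are not independent replicates and no p-value is given.

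With a division at 58% GC, chosen after the values were seen, the 11 genes at or above it had a median of 9.34 CPM per coding kilobase and the 37 below it a median of 43.6. Over all genes with a mean count of at least 10 the medians on the 2 sides were 20.9 and 38.7. Of the 9 genes under 10 CPM per coding kilobase, 6 were at or above 58% GC, namely Ring1, Setd1b, Kdm6b, Hdac5, Kdm4b and Dot1l, and Setd1a, Sirt1 and Hdac9 were the other three. The other genes at or above 58% GC lay above 10 CPM per coding kilobase. Hdac7 was the highest of them, with 61.2% GC and 55.7 ± 4.06 CPM per coding kilobase. Hdac4 (58.4% GC) stood at 33.6, Ehmt2 (61.3% GC) at 28.9, Kmt2b (59.3% GC) at 13.4 and Kmt2d (59.4% GC) at 10.4. In 8 of all 15 pairs the gene with the lower coding GC had the higher level. Among the 11 pairs that differed by at least 1 on the log2 scale this held for 7, Ezh2 and Ezh1 being among the 4 that ran the other way. The part of GC content in the measured levels was not tested.

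**Figure D4:**
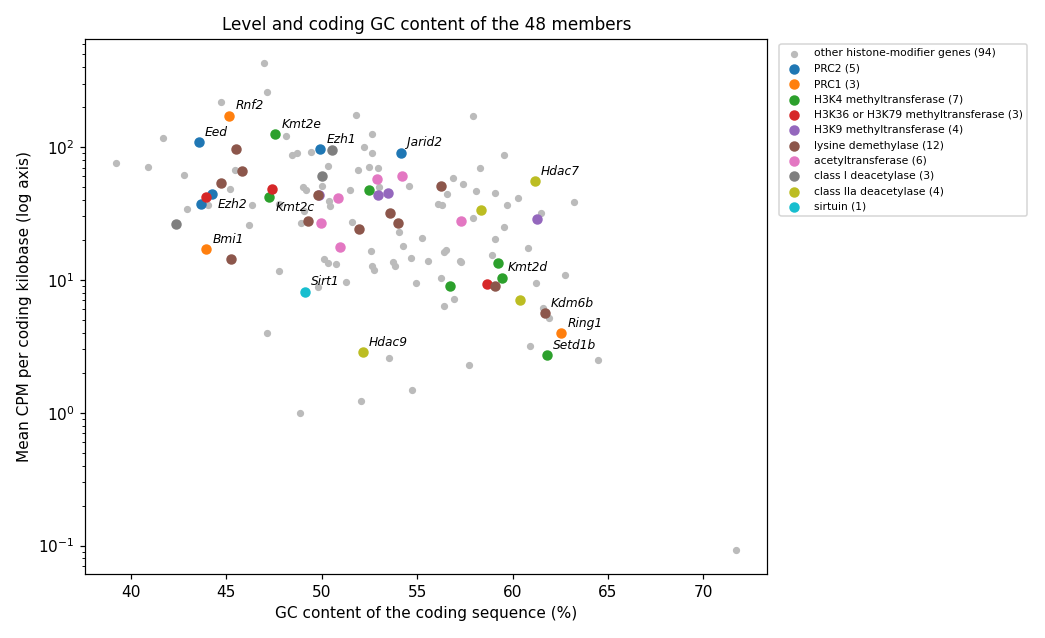
Mean CPM per coding kilobase (log axis) against GC content of the coding sequence in percent for the 48 genes, coloured by activity, and for 94 other histone-modifier genes in grey. Rnf2, Kmt2e and Eed lie at the upper left, and Ring1, Setd1b and Kdm6b, all over 61% GC, lie at the lower right.

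The libraries were then compared to see whether these genes differed between the technical replicates by more than counting error. Each gene's 3 counts were set against Poisson expectation by a chi-square test, with library sizes scaled by TMM, and 15 of the 48 passed at an adjusted p (Benjamini-Hochberg) of 0.05. In all, 27.6% of the 10282 genes tested passed, so the share among the 48 (31.2%) lay near the background. The median ratio between the extreme libraries (highest over lowest) was 1.18 for the 48 genes and 1.25 for all tested genes. Neither comparison is at equal depth. The median was 116 CPM for the 48 genes and 48.4 CPM for all tested genes, and counting error is smaller at higher counts. Without library 1 the count was 11 of 48 (background 16.5%), without library 2 it was 6 (background 9.38%), and without library 3 it was 13 (background 19.5%). When a coefficient of variation of 12.5% between libraries was allowed for all genes (negative binomial variance), none of the 48 passed, against 0.904% of all genes. The lowest adjusted p among the 48 in that chi-square test was 0.501 with the same edgeR dispersion. That dispersion was estimated from these same 3 libraries, so it takes in the differences tested and is no independent check. At an unadjusted p under 0.05 the Poisson test gave 22 of 48, against 38.6% of all tested genes.

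Library 1 was the highest for 9 of the 15, and libraries 2 and 3 for 3 each. These were 60%, 20% and 20% of the 15, against 40.3%, 31.6% and 28.1% of the 2836 genes that passed over the whole files. As shares of all 10282 genes tested, passing or not, the latter were 11.1%, 8.71% and 7.75%. With plain totals 17 genes passed (27.9% of all genes), 7, 6 and 4 of them highest in libraries 1, 2 and 3. Over all genes that split was 984, 1186 and 697, so that library 2 led in place of library 1. With DESeq2 size factors 18 passed (27.6% of all genes), and the split was 8, 3 and 7, against 1057, 952 and 829 over all genes. The order of the libraries thus depended on the scaling, while all 15 genes passed under both of these.

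Lysine demethylases made up 6 of the 15. The list held 12 of them, so 6 of 12 passed, against 27.6% of all genes tested. Of the 11 demethylases tested outside the list, 3 passed. Whether demethylases differed from other genes as a class was not tested. The adjusted p-values given for the 6 demethylases and for the other genes are those of the chi-square test over the 3 libraries. Kdm4a had 358, 245 and 195 counts in libraries 1, 2 and 3 and was higher in library 1 than in library 3 by 1.65-fold (95% exact binomial interval 1.38 to 1.97) and than in library 2 by 1.51-fold (95% exact binomial interval 1.28 to 1.78, chi-square adjusted p = 3.73e-08). Kdm4c had 632, 426 and 528 counts and was higher in library 1 than in library 2 by 1.53-fold (95% exact binomial interval 1.35 to 1.74, chi-square adjusted p = 6.38e-10). Library 2 was the low one for Kdm4c, whereas libraries 2 and 3 were both low for Kdm4a. Kdm3a and Kdm5a followed the pattern of Kdm4c, and both were lowest in library 2. Kdm3a was higher in library 1 than in library 2 by 1.39-fold (95% exact binomial interval 1.26 to 1.53, chi-square adjusted p = 2.50e-09), and Kdm5a by 1.32-fold (95% exact binomial interval 1.23 to 1.42, chi-square adjusted p = 3.12e-12). Kdm2a had 550, 480 and 388 counts and was highest in library 1 and lowest in library 3 (chi-square adjusted p = 0.00440). Kdm7a ran the other way, with 98, 153 and 126 counts and a ratio of library 1 over library 2 of 0.662 (95% exact binomial interval 0.508 to 0.858, chi-square adjusted p = 0.0179).

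Of the other 9 genes Hdac5 had the widest ratio. It had 75, 98 and 50 counts, highest in library 2 and lowest in library 3, with a ratio of library 2 over library 3 of 1.70 (95% exact binomial interval 1.20 to 2.45, chi-square adjusted p = 0.0322). Kat5 had 349, 280 and 235 counts and a ratio of library 1 over library 3 of 1.33 (95% exact binomial interval 1.13 to 1.58, chi-square adjusted p = 0.00367). Kat2b (227, 176 and 204 counts) and Setdb1 (589, 477 and 529 counts) were low in library 2, with libraries 1 and 3 alike. Hdac4 (372, 377 and 265 counts) was low in library 3. With plain totals the highest library changed to library 3 for Setdb1 and to library 2 for Hdac4. Kat6a, Kmt2c, Jarid2 and Kmt2a differed by 1.26, 1.19, 1.18 and 1.14 fold between their highest and lowest library. Ezh1, Ezh2, Suz12, Rnf2 and Ring1 did not pass (chi-square adjusted p = 0.544, 0.327, 0.896, 0.138 and 0.362). Eed and Bmi1, both lowest in library 1, did not pass either (chi-square adjusted p = 0.0649 and 0.444). Hdac9 (24, 22 and 38 counts) and Kdm6b (100, 102 and 58 counts) fell just short at 0.0506 and 0.0509 in the same chi-square test.

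**Figure D5:**
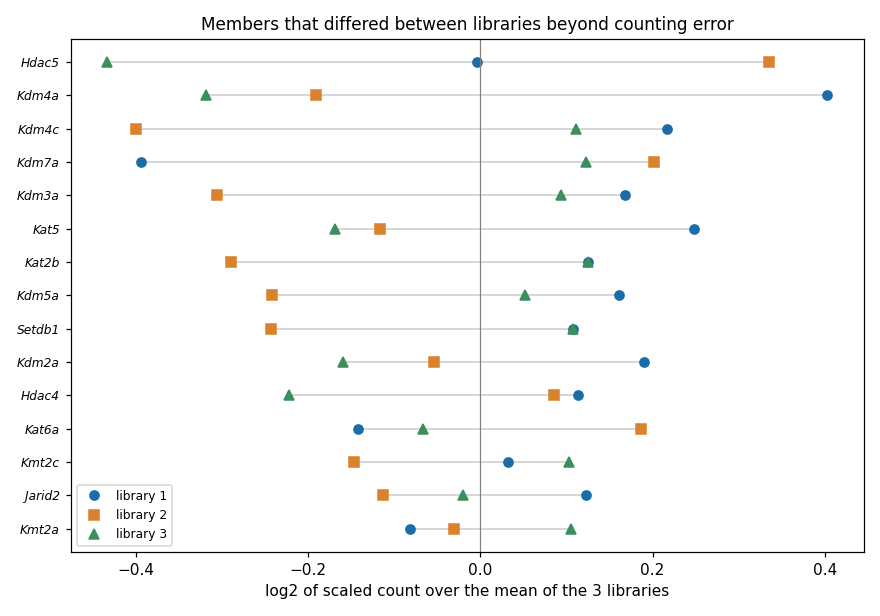
Log2 of the TMM-scaled count over the mean of the 3 libraries for the 15 genes that passed the chi-square test, ordered by the ratio of highest to lowest library. Library 1 lies to the right for Kdm4a, Kdm4c, Kdm3a, Kat5, Kdm5a and Kdm2a and to the left for Kdm7a, Kat6a and Kmt2a.

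The calls were also computed with each library's trend with coding GC and length removed. In that test 16 of the 48 genes passed against a background of 23.1%, and 9 of them were among the first 15. Kat2b, Setdb1, Hdac4, Hdac5, Kmt2c and Jarid2 no longer passed (chi-square adjusted p between 0.0859 and 0.311). The demethylases Kdm4a, Kdm4c, Kdm3a, Kdm5a, Kdm2a and Kdm7a still passed, with differences that became smaller in all but Kdm7a. The log2 difference between the highest and lowest library was 0.20 with the trend removed and 0.40 without that step for Kdm5a (library 1 over 2), and 0.29 and 0.47 for Kdm3a (library 1 over 2). For Kdm4a (library 1 over 3) it was 0.64 and 0.72. Of the genes that no longer passed, Hdac5 (library 2 over 3) had 0.61 and 0.77, and Kat2b (library 3 over 2) had 0.32 and 0.41. Kmt2b, Kmt2d, Kmt2e, Setd2, Crebbp, Kdm3b and Kdm4b passed in their place. Kmt2e and Setd2 had chi-square adjusted p of 0.467 and 0.283 before that step and 1.72e-06 and 7.18e-06 after it. Whether the fitted trend itself added differences to these genes was not tested. The split by highest library became 6, 6 and 4, and the split over all genes was not taken for that test. The B cell, neutrophil and erythroid markers given above also differed between these libraries, and their part in the differences was not tested.

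A list of 96 further subunits and enzymes of the same activities was examined beside the 48. Of these, 94 were matched, 90 reached 1 CPM in every library and 89 had a mean count of at least 10. The highest per coding kilobase were Rbbp4, Dpy30, a COMPASS subunit (261 ± 35.4 CPM per coding kilobase), Rbbp7, the NuRD subunit Mta2 (174 ± 16.8) and the deacetylase Sirt2 (172 ± 12.5). Epop and Rybp had means under 1 CPM. Of the 89 tested, 23 passed the chi-square test (25.8%, against 27.6% of all genes tested). Library 1 was the highest for 14, library 2 for 3 and library 3 for 6. Of the 2836 genes that passed over the whole files, 40.3%, 31.6% and 28.1% were highest in libraries 1, 2 and 3. None of the 89 passed with the negative binomial variance, against 0.904% of all genes. The widest ratios were those of Setmar (20, 3 and 11 counts) and Pcgf3 (32, 12 and 16 counts), both highest in library 1, followed by Cbx7 (118, 89 and 66 counts), Setdb2 (239, 192 and 241 counts) and Kdm1b (245, 183 and 200 counts). Without library 1 the number that passed was 13 (background 16.5%), and without library 2 it was 7 (background 9.38%).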

How the data were processed

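Per the file headers and the descriptions deposited beside them, each file holds whole-number counts per gene from alignments to mm10 with GENCODE M4. The aligner, the counter, the strand setting and any duplicate removal were not given in the sources used here. The authors' counts were used as deposited. Symbols, positions and lengths came from GENCODE M21 (GRCm38). Of 22457 identifiers 22195 matched. The coding length is that of the longest coding sequence, and exon length is the union of exons. CPM used totals of all genes, and 3 counts equalled 0.936, 0.929 and 1.04 CPM in libraries 1, 2 and 3.

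Counts were tested with Pearson's chi-square (2 degrees of freedom) over all genes with a mean of at least 10, using TMM sizes from edgeR 4.0.16 in R 4.3.3. With 1 group there was no contrast for edgeR's quasi-likelihood test. Alternatives were DESeq2 size factors, plain totals, mean count minimums of 1 and 50, an adjusted p of 0.01, a negative binomial variance with edgeR's common dispersion, removal of GC and length trends, other lengths and leaving out each library. Pairs of libraries were compared by exact binomial tests. P-values measure only the spread between these libraries, which the labels call technical replicates. Markers of other cells differed between the libraries, as given above. The trend removal fitted a quadratic surface of coding GC and log length. Near-identical copies had at least 95% identity over 100 bases (BLAST 2.17.0). DESeq2 1.42.0, Python 3.11.15, numpy 2.4.6, scipy 1.17.1 and pandas 2.3.3 were also used. The tests were tried on simulated counts with Poisson spread only, so that trial does not cover spread between libraries beyond counting error.

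Members and lists were chosen with earlier results of these data known. Every member was to be named with its mean, and values per library were given for Polycomb genes, for the 2 highest and the lowest of each other group, for Sirt1, for pairs described and for the most variable genes that passed. The other genes named were the 5 highest, those under 1 CPM and the 5 most variable that passed, plus Polycomb subunits and Kdm6a and Uty, added after values were seen. Of the Polycomb subunits on the list, 1 is not reported here.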

Additional observations from a re-analysis of the deposited data

How the results depend on the processing

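The 15 genes that passed became 0 with a negative binomial variance, whose dispersion was estimated from these same libraries. The number was between 6 and 13 when 1 library was left out, with 6 without library 2. The 23 of the other histone-modifier genes became 0 with the negative binomial variance and between 7 and 21 with 1 library left out. Scalings and the removal of trends kept both counts within 1.5 fold, as did the filters and the stricter adjusted p, which were run on the 48 genes only. The median level of 39.2 CPM per coding kilobase became 15.8 per exon kilobase, 116 CPM with no length correction and 37.2 without the 1 gene (Rnf2) above 0.5 counts per coding base, and lay between 37.7 and 39.1 with 1 library left out. All 48 genes reached 1 CPM under every alternative at that threshold, and 47 reached 5 CPM, Ring1 being the other. The ratio of Kat2a to Kat2b was 0.05 on the log2 scale with coding length and 0.57 with exon length. With coding length it changed sign to -0.044 without library 2 and lay between -0.044 and 0.10 with 1 library left out. Of the 10 most variable genes that passed, 10 lost the call with the negative binomial variance and 3 with the trends removed. No paired analysis was possible because there is 1 group. Depth limits Ring1, with 10 to 20 counts a library, most.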
